A study of Mus musculus with 6 samples.

Results

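GABA-A receptor subunit genes were examined in RNA sequencing libraries of mouse aortic roots, where the aorta leaves the heart and the aortic valve sits. Members were chosen by their summed counts: they are the rows of the deposited count table whose symbol names an alpha, beta, gamma, delta, epsilon, pi or theta subunit and whose counts sum to 10 or more over the 6 libraries. Of 16 such genes in the table, 10 reached that sum, among 23420 genes in all. Among the 10 were Gabra3, Gabra4, Gabrb1, Gabrb2, Gabrd, Gabre, Gabrg3 and Gabrq. The rule reads the total over both genotypes and not the difference between them. Gabra3, Gabre and Gabrq, which lie together on the X chromosome, were however singled out with their difference between genotypes already known, so their values, and their calls in the fit across all genes, are given as a description that supports nothing. Just inside the limit was Gabra4 with 26 counts in total, and just outside were Gabra2 and Gabra5 with 6 each.

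The groups were 3 aortic roots labelled Sost+/+ and 3 labelled Sost-/-, a double knockout of the Sost gene according to the series' design. All roots came from mice of C57BL6/J background aged 12 months, which ate standard chow until the age of 4 months and food rich in cholesterol (TestDiet 5TJT) over the next 8. The labels describe the knockout no further and do not tie roots to animals, so p-values measure only the spread between these roots. Whole-number counts summed to 37023586 to 48172863 per library. Levels are given as CPM, counts per 1000000 counts of the library, with library sizes scaled by the TMM method. Sost itself, which encodes the Wnt antagonist sclerostin, had 354, 621 and 274 counts in the libraries labelled Sost+/+ against 2284, 1063 and 513 in those labelled Sost-/-. The targeted gene was therefore not lower in the libraries labelled Sost-/- (log2 fold change 1.56, SE 0.48, edgeR adjusted p = 0.124), which goes against the genotype label. A value called higher or lower below is that of the Sost-/- label relative to the Sost+/+ label. From which part of Sost the reads came is not known from a table by gene.

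GABA-A receptors are chloride channels opened by the neurotransmitter GABA. Each is a ring of subunits drawn from several families, and most combine alpha and beta subunits, between which GABA binds, with a subunit of another kind such as gamma, delta, epsilon or theta. They are best known from inhibitory synapses of the brain, and subunit mRNAs are also found in tissues outside it. Most subunit genes lie in clusters, and Gabre, Gabra3 and Gabrq form the cluster of the X chromosome.

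In GENCODE M21 (build GRCm38, the assembly of mm10), Gabre lies at chrX:72255999-72274803 and Gabra3 at chrX:72432681-72656848, both on the minus strand, and Gabrq at chrX:72825178-72842602 on the plus strand. The span from the first to the last base of the cluster is 586.6 kb. A gap of 157.9 kb parts Gabre from Gabra3, and one of 168.3 kb parts Gabra3 from Gabrq. The only other protein-coding gene within the span is Magea10, a MAGE family gene, which had 2 and 1 counts in Sost-/- replicates 1 and 3 and 0 in the other libraries. Introns of Gabre hold the microRNA genes Mir224 and Mir452, and introns of Gabra3 hold Mir105 and Mir767. Of these, Mir452 had 0 to 2 counts per library and Mir105 and Mir767 had 0 throughout. Mir224 was not analysed here, and mature microRNAs were not measured.

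The bases before the start sites of the 3 genes are shown because the genes differed between the genotypes together, and so that their promoters can be set side by side. Each is the 250 bases before a RefSeq start site (build GRCm38.p6), read 5′ to 3′ on the strand of the gene, and capitals mark every match, on either strand, to the GC box GGGCGG, the CCAAT box CCAAT, the TATA box TATAAA or the M-CAT motif GGAATG. Gabra3 has a further RefSeq start site nearby, whose window, chrX:72656920-72657169, is not shown. RefSeq and GENCODE place some starts differently, so part of the windows shown for Gabre and Gabra3 lies inside the GENCODE genes given above. The window of Gabrq lies outside its GENCODE gene.
Gabre, chrX:72274722-72274971, minus strand: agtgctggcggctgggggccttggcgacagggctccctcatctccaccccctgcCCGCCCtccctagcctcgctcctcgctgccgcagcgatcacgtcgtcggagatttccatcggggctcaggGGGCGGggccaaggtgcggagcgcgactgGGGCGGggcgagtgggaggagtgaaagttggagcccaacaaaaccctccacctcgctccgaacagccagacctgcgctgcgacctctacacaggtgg
Gabra3, chrX:72656808-72657057, minus strand: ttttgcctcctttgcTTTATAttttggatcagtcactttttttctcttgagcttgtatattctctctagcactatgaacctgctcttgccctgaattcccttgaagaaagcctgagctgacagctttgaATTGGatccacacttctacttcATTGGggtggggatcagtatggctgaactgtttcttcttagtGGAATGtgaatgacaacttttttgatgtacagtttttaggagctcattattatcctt
Gabrq, chrX:72824928-72825177, plus strand: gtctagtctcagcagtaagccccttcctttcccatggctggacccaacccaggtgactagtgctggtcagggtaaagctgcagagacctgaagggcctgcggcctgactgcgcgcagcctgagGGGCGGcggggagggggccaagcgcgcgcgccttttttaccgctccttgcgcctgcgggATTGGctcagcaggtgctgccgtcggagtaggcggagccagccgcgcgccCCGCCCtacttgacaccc
The 3 windows are of unlike composition. Those of Gabre and Gabrq are 68.8% and 67.2% G or C and hold 21 and 19 CG dinucleotides, whereas that of Gabra3 is 39.2% G or C and holds 0. Over 32851 RefSeq windows of the same length the median was 52.4% G or C with 6 CG dinucleotides. At least 21 were found in 16.3% of windows, at least 19 in 19.7% and none in 7.87%. The GC box occurred 3 times before Gabre and 2 times before Gabrq, against 32.7% of all windows with at least 1 match. The CCAAT box occurred 2 times before Gabra3 and 1 time before Gabrq (33.8% of all windows), and Gabra3 alone of the 3 had matches to the TATA box (12.4%), 235 bases before the start, and to the M-CAT motif (12.6%), 57 bases before it. The TCF/LEF motif ATCAAAG (3.21% of all windows) and the CArG box (1.47%) had no match in any of the 3 windows. The E-box CANNTG, not marked, occurred 1 time before Gabre, 0 times before Gabra3 and 2 times before Gabrq (66.2%). None of these searched motifs was present in all 3 windows. The window of the further Gabra3 start site gave other matches, with the TATA box 123 bases before that start, 1 CCAAT box and 0 M-CAT motifs. A match is a description of the letters and not a bound site.

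All 3 genes of the X-linked cluster were higher in every library labelled Sost-/- than in any library labelled Sost+/+. Gabra3, the alpha-3 subunit gene, had 137, 270 and 71 counts in Sost+/+ replicates 1 to 3 and 1188, 1137 and 1446 in Sost-/- replicates 1 to 3. Its mean level was 3.96 ± 2.58 CPM (SD, n = 3) and 30.1 ± 3.82 CPM (SD, n = 3), which is 2.92 as log2 fold change (SE 0.36). The Sost+/+ libraries differed among themselves, with replicate 2 at 6.87 CPM against 3.07 and 1.95 in replicates 1 and 3, while the Sost-/- libraries lay between 27.8 and 34.5 CPM.

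Gabre, the epsilon subunit gene, had 24, 59 and 20 counts in the libraries labelled Sost+/+ against 240, 175 and 250 in those labelled Sost-/-. Its mean level was 0.863 ± 0.553 and 5.30 ± 0.868 CPM (SD, n = 3 each), a log2 fold change of 2.62 (SE 0.37). Sost+/+ replicate 2 was again the highest of its group.

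Gabrq, the theta subunit gene, had 1, 3 and 0 counts in the libraries labelled Sost+/+ against 22, 27 and 12 in those labelled Sost-/-. The 0 of Sost+/+ replicate 3 allows up to 3 counts, or 0.0824 CPM. Mean levels were 0.0329 ± 0.0392 and 0.489 ± 0.191 CPM (SD, n = 3 each). The summed counts, 4 against 61, give a ratio of 14.7 with an exact 95% interval of 5.44 to 55.5 that covers counting error only. The fitted log2 fold change of 3.76 (SE 0.75) rests on these few counts and on the prior count. Gabrq passed the filter on low counts only through the libraries in which it is high, so that it had to differ.

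**Figure D1:**
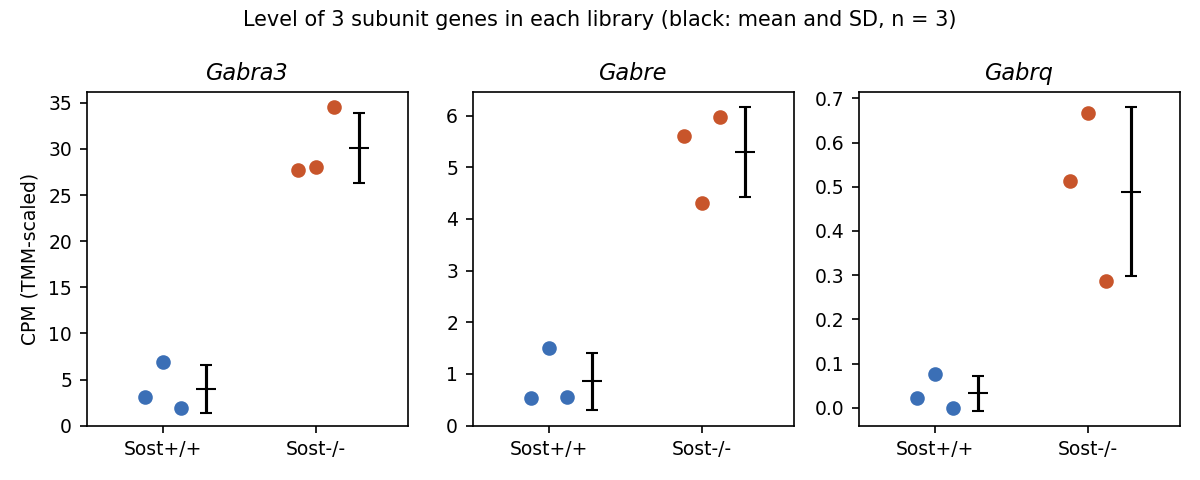
Level in each library, in CPM scaled by TMM, of Gabra3, Gabre and Gabrq, each on its own axis, with 1 point per library and the mean and SD (n = 3) in black. In each of the 3 genes the groups do not overlap (Gabra3 mean 3.96 against 30.1 CPM, Gabre 0.863 against 5.30 CPM).

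Among 15096 genes ordered by log2 fold change, Gabrq was number 2, Gabra3 number 6 and Gabre number 9 from the top. All 3 passed edgeR's quasi-likelihood test at a Benjamini-Hochberg adjusted p of 0.05, as did 2.55% of all genes tested (2.18% as higher), and all 3 had no overlap between groups, as had 14.3% of all genes tested in that direction. Since the genes were picked with this known, nothing is read from the count. The calls depend on single libraries. None of the 3 passed without Sost+/+ replicate 1 or without Sost-/- replicate 3, and Gabrq passed only when no library, or Sost+/+ replicate 2, was left out. The direction did not change: over the 6 fits with a library left out the log2 fold change ran from 2.60 to 3.57 for Gabra3, from 2.34 to 3.28 for Gabre and from 3.26 to 5.00 for Gabrq.

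The 3 genes were present in unequal amounts, and the proportion of Gabra3 to Gabre was much alike in the genotypes. Per kilobase of exon, Gabra3 exceeded Gabre 6.89, 5.52 and 4.28 times in Sost+/+ replicates 1 to 3 and 5.97, 7.84 and 6.98 times in Sost-/- replicates 1 to 3, so the ranges overlap. Gabra3 exceeded Gabrq by 187 and 123 times in Sost+/+ replicates 1 and 2, where Gabrq had counts, and by 73.7, 57.4 and 164 times in those labelled Sost-/-. Over the 6 libraries Pearson's r of log2 CPM was 0.990 between Gabra3 and Gabre, 0.960 between Gabra3 and Gabrq and 0.943 between Gabre and Gabrq. These values describe 6 points that fall into the 2 genotype groups.

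Of the subunit genes outside the cluster, the 5 described here lay below edgeR's filter on low counts and were not part of the test across genes. Gabrb2, the beta-2 gene, had 12, 7 and 10 counts under the Sost+/+ label against 4, 12 and 6 under the Sost-/- label, and Gabrd, the gene of the delta subunit found in receptors outside synapses, had 11, 7 and 5 against 6, 8 and 6. Gabrb1, another beta gene, had 7, 20 and 2 counts against 7, 1 and 10, with the highest value in Sost+/+ replicate 2 and the lowest in Sost-/- replicate 2. The gamma-3 gene Gabrg3 had 5, 3 and 3 counts against 2, 11 and 8, and the alpha-4 gene Gabra4 had 4, 8 and 1 against 4, 5 and 4. In all 5 the groups overlap. Gabra4 and Gabrb1 overlap over 196 bases on opposite strands, and whether the counting used strand is not given in the sources used here. In an edgeR fit without the filter none of the 5 passed, with adjusted p from 0.632 for Gabrg3 to 0.994 for Gabra4. The ratio of summed counts was 1.83 for Gabrg3 (exact 95% interval 0.846 to 4.21), an interval that covers counting error only and not the spread between roots.

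Among the genes under the limit of 10 counts, Gabra6 had 0 counts in all 6 libraries, and Gabra2, Gabra5, Gabrg1 and Gabrp had 2 to 6 counts in total.

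**Figure D2:**
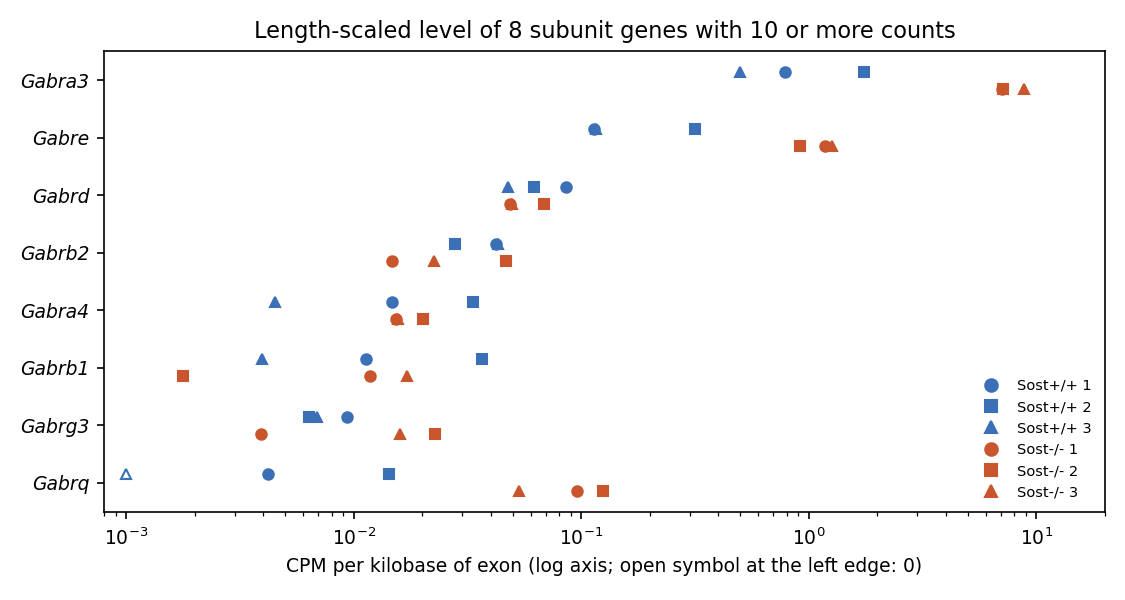
CPM per kilobase of exon (log axis) of 8 subunit genes with 10 or more counts, 1 symbol per library, ordered by the mean in the libraries labelled Sost+/+, with 0 drawn open at the left edge. Gabra3 and Gabre are displaced to the right in all 3 libraries labelled Sost-/-, Gabrq moves from place 8 to place 3 in the order, and the other 5 overlap.

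Divided by the length of the annotated exons, the levels of these 8 genes could be ordered within each group. In the libraries labelled Sost+/+ the order began with Gabra3 at 1.01 ± 0.657 CPM per kb and Gabre at 0.182 ± 0.117 (SD, n = 3 each), which did not overlap. Gabrd followed at 0.0652 ± 0.0192, clear of its neighbours. From Gabrb2 (0.0378 ± 0.00852) through Gabra4, Gabrb1 and Gabrg3 to Gabrq (0.00615 ± 0.00733) each gene overlapped the next.

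In the libraries labelled Sost-/- Gabra3 was at 7.67 ± 0.973 CPM per kb and Gabre at 1.12 ± 0.183 (SD, n = 3 each), with no overlap between neighbours down to Gabrq at 0.0913 ± 0.0357. Gabrq overlapped Gabrd (0.0557 ± 0.0112), which lay clear of Gabrb2 (0.0279 ± 0.0166), and from Gabrb2 through Gabra4 and Gabrg3 to Gabrb1 each gene overlapped the next.

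Summed over the members, the length-scaled level of the 3 cluster genes was 0.901, 2.08 and 0.613 CPM per kb in Sost+/+ replicates 1 to 3 and 8.35, 8.18 and 10.1 in Sost-/- replicates 1 to 3. That of the other 7 members was 0.510, 0.443 and 0.434 against 0.332, 0.550 and 0.431, and these groups overlap. The cluster genes therefore took 63.9%, 82.4% and 58.5% of the length-scaled subunit counts in the libraries labelled Sost+/+ against 96.2%, 93.7% and 95.9% in those labelled Sost-/-. The means were 68.3% ± 12.5 and 95.3% ± 1.36 (SD, n = 3 each). Gabra3 alone made up 57.4% ± 11.1 and 82.2% ± 1.07, and Gabre 10.6% ± 2.29 and 12.0% ± 1.598, of the length-scaled subunit counts (SD, n = 3 each). These are mRNA levels in whole roots, where fewer cells of a type and less RNA per cell cannot be told apart.

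The tested neighbours of the cluster on the X chromosome had smaller log2 fold changes than its members. Since the members were singled out with their difference known, nothing is read from this contrast. Within 1 Mb on either side, 49 other genes of the table were found, of which 28 passed the filter on low counts. Of these 28, 0 passed the test in either direction, beside 2.55% of all genes tested, and 13 had a log2 fold change above 0. Their median log2 fold change was -0.06, against 0.0066 over all genes tested. Groups did not overlap for 8 of the 28, beside 25.4% of all genes tested.

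The nearest tested neighbour on the side of Gabre was Prrg3, a gene of the proline-rich Gla protein family, with 590, 786 and 554 counts against 956, 791 and 941 (log2 fold change 0.41, SE 0.15, edgeR adjusted p = 0.175). On the side of Gabrq, the centrin gene Cetn2 was at -0.16 (SE 0.12) and Nsdhl, which encodes an enzyme of cholesterol synthesis, at 0.28 (SE 0.16), followed by the LIM domain gene Zfp185 at 0.24 (SE 0.20). The largest log2 fold changes of the window outside the cluster were those of the kinase gene Pnck (0.76, SE 0.19, edgeR adjusted p = 0.0793) and of the proteoglycan gene Bgn, biglycan (0.64, SE 0.15, edgeR adjusted p = 0.0661). Both were higher in all 3 libraries labelled Sost-/-, and neither passed.

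**Figure D3:**
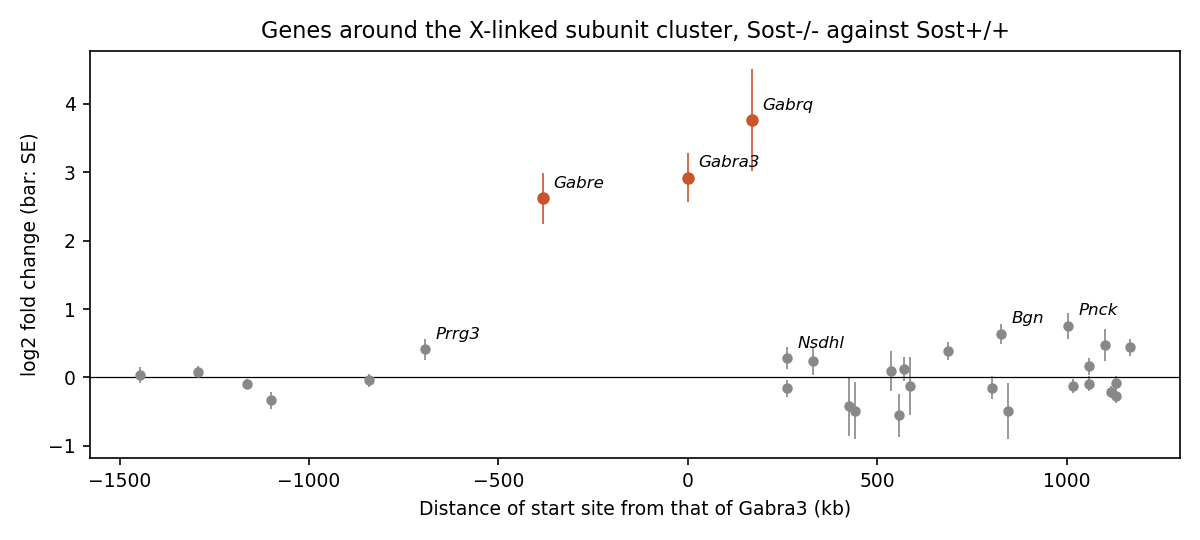
Log2 fold change with its SE of each tested gene within 1 Mb of the cluster, against the distance of its start site from that of Gabra3 in kb. The cluster genes (orange) lie between 2.62 and 3.76, and all other genes (grey) lie below 0.76 or at it.

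Most other genes of GABA signalling and of related channels did not pass the test, which only 2.55% of all genes tested passed in either direction. A count of 0 in the lists below is near that share and is not read as a result about their members. Of 5 tested genes of the GABA-B receptor, a G protein coupled receptor, and its auxiliary subunits, 0 passed. The receptor gene Gabbr1 was at 24.7 ± 0.463 and 31.5 ± 2.41 CPM (SD, n = 3 each) with no overlap between groups, a log2 fold change of 0.35 (SE 0.09, edgeR adjusted p = 0.0762). Its partner Gabbr2 had 2 to 9 counts per library.

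Of 6 tested genes of GABA synthesis and breakdown 0 passed, with log2 fold changes from -0.14 to 0.15. The smallest p was that of Maob, a monoamine oxidase gene (log2 fold change 0.15, SE 0.09, edgeR adjusted p = 0.382). The genes of the enzymes that make GABA from glutamate were scarcely detected: Gad1 had 0 to 3 counts per library, and Gad2 had 3, 7 and 1 counts in the libraries labelled Sost+/+ and 0 in each of those labelled Sost-/-, where a 0 allows up to 3 counts. Of 4 tested transporter genes, a list that also holds a taurine and a creatine transporter gene, 0 passed. The GABA transporter gene Slc6a13 had 78, 70 and 14 counts against 65, 138 and 123 (log2 fold change 0.99, SE 0.50, edgeR adjusted p = 0.299), and the groups overlap.

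Of 21 tested genes of receptor clustering and trafficking, which include the scaffold gephyrin and the GABARAP proteins, 0 passed, with a median log2 fold change of -0.05. The neuroligin gene Nlgn2, an adhesion protein of inhibitory synapses, had the smallest p (0.34, SE 0.11, edgeR adjusted p = 0.132). Among related receptors 0 of 1 tested rho subunit genes, 0 of 1 glycine receptor genes and 0 of 5 nicotinic and serotonin receptor genes passed. The rho-2 gene Gabrr2 was at -0.32 (SE 0.34), the glycine receptor gene Glrb at 0.89 (SE 0.36) and the nicotinic gene Chrna2 at -0.32 (SE 0.24).

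Chloride transporters and channels were the only one of these other lists with members that passed, 2 of 10 as higher and 0 as lower, beside 2.18% and 0.371% of all genes tested. Ano1, the calcium-activated chloride channel of smooth muscle and other cells, had 598, 716 and 527 counts in the libraries labelled Sost+/+ against 1769, 1055 and 1822 in those labelled Sost-/-. It rose from 15.4 ± 2.52 to 36.95 ± 9.52 CPM (SD, n = 3 each, log2 fold change 1.27, SE 0.19, edgeR adjusted p = 0.0191), and the groups do not overlap. Clcn2, a voltage-gated chloride channel gene, had 239, 215 and 198 counts against 338, 348 and 400, and rose by 0.68 on the log2 scale (SE 0.13, edgeR adjusted p = 0.0359). The chloride importer gene Slc12a2 was at 0.08 (SE 0.11) and the exporter gene Slc12a5 at 0.14 (SE 0.29), neither of which passed. The call of Ano1 ended without Sost+/+ replicate 1 (adjusted p = 0.120), Sost+/+ replicate 3 (0.0535) or Sost-/- replicate 3 (0.0765), and that of Clcn2 held in only 1 of the 6 fits with a library left out, that without Sost-/- replicate 1 (0.0449).

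**Figure D4:**
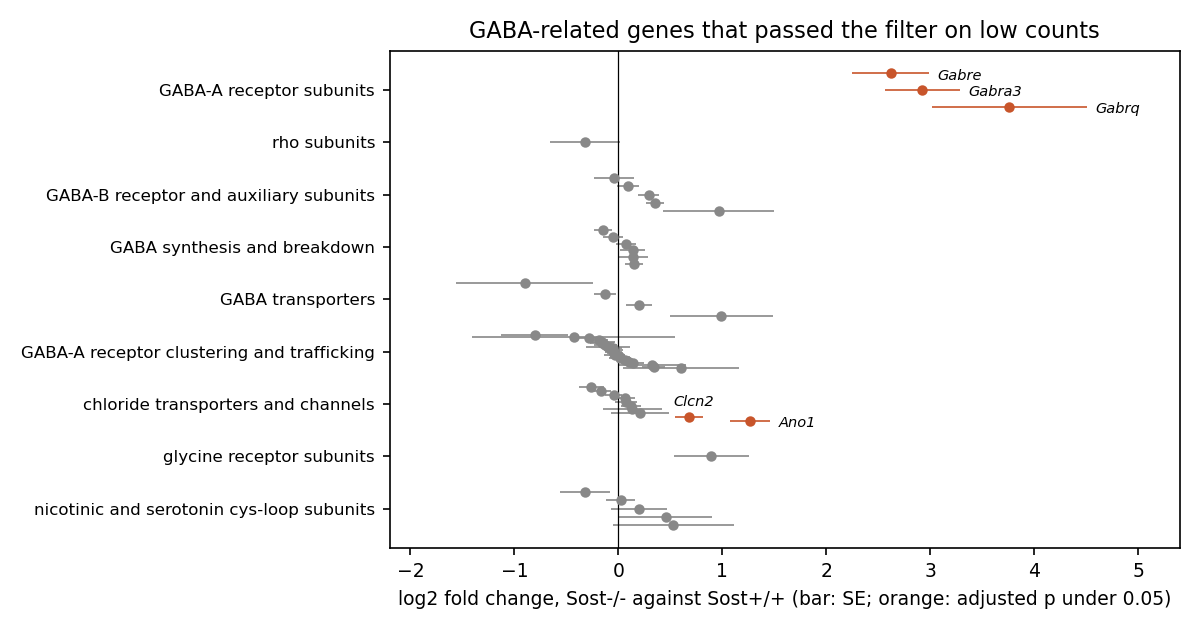
Log2 fold change with its SE of tested genes in 9 lists of GABA-related genes and related channels (3 of the 4 tested GABA-A subunit genes are drawn), orange where the edgeR adjusted p was under 0.05. Outside the GABA-A subunits, Clcn2 (0.68) and Ano1 (1.27) are the only orange points.

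Markers of smooth muscle differed between the same libraries. Of 12 smooth muscle markers 9 rose and 0 fell, beside 2.18% of all genes tested as higher, with a median log2 fold change of 1.55, and their summed level was 1426 to 2764 CPM in the libraries labelled Sost+/+ against 4114 to 6193 CPM in those labelled Sost-/-. None of the 12 was at 0 in any library. Of the markers that rose, Myl9 had a log2 fold change of 1.62 (SE 0.26, edgeR adjusted p = 0.0194). Its call ended without Sost+/+ replicate 1 (adjusted p = 0.120), Sost+/+ replicate 3 (0.0510) or Sost-/- replicate 3 (0.0765). The rises of Gabra3 and Gabre, 2.92 and 2.62 on the log2 scale, lay above the largest among the 12 markers, 2.06 for the potassium channel subunit gene Kcnmb1. Both subunit genes were singled out with their difference known, so nothing is read from this contrast. The mean log2 CPM of the markers was 6.18, 6.86 and 6.03 in Sost+/+ replicates 1 to 3 and 7.70, 7.38 and 7.97 in Sost-/- replicates 1 to 3. Sost+/+ replicate 2, the highest of its group in Gabra3, Gabre and Gabrq, was also the highest of its group in this mean. Sost-/- replicate 3 was highest of all 6 in the marker mean, in Gabra3 and in Gabre, but lowest of its group in Gabrq.

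With this mean as a covariate, 0 of the 4 tested members passed, and 0 of all genes (415 at an unadjusted p under 0.05, edgeR). The log2 fold change was then 1.20 (SE 0.44) for Gabra3, 0.81 (SE 0.52) for Gabre and 4.25 (SE 1.75) for Gabrq, and 0.30 (SE 0.34) for Ano1. Since the marker means do not overlap between the groups, such values extrapolate beyond the libraries measured, and the part of smooth muscle content in the differences cannot be told apart from that of the genotype label.

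Of 12 cardiomyocyte markers 0 rose and 1 fell (Csrp3, a muscle LIM protein gene), beside 0.371% of all genes tested as lower, with a median of -0.45 and a summed level of 84520 to 90890 CPM against 57260 to 71280 CPM. Of the 12, only 1 had a log2 fold change above 0. Lower with no overlap between groups were 8, beside 25.4% of all genes tested without overlap in either direction. The call of Csrp3 ended in all 6 fits with a library left out (edgeR adjusted p from 0.0784 to 0.220) and with total-count scaling (0.0585). With the mean of the markers as a covariate the log2 fold change was 4.12 (SE 0.73) for Gabra3, 4.30 (SE 0.66) for Gabre and 3.40 (SE 1.602) for Gabrq. The edgeR adjusted p was 0.0803, 0.0486 and 0.434, so that only Gabre passed. These marker means, 11.81 to 11.99 under the Sost+/+ label against 11.48 to 11.66 under the Sost-/- label, do not overlap either. Such values therefore also extrapolate beyond the libraries measured.

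**Figure D5:**
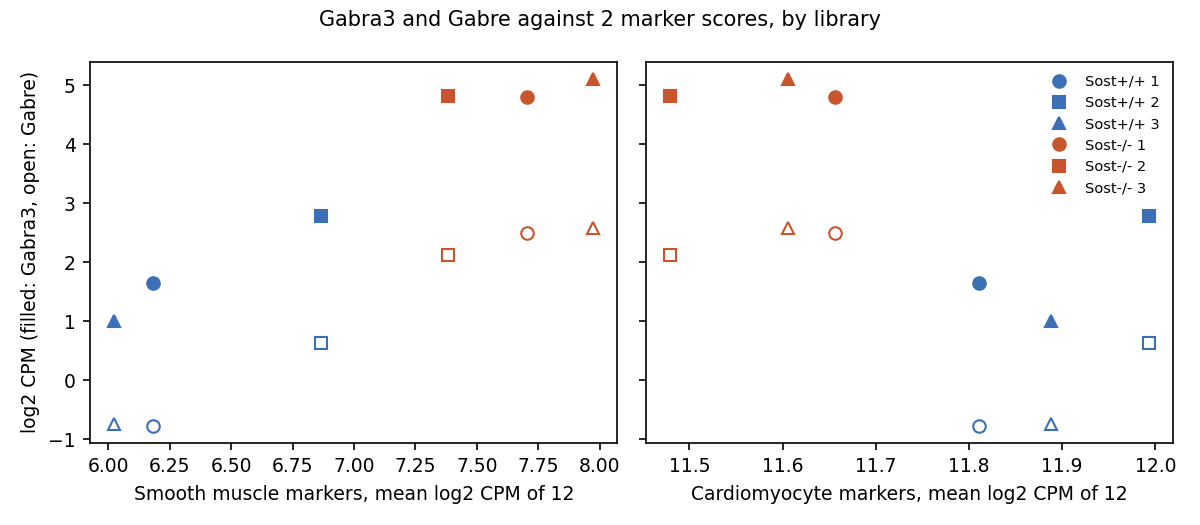
Log2 CPM of Gabra3 (filled) and Gabre (open) in each library against the mean log2 CPM of 12 smooth muscle markers (left) and of 12 cardiomyocyte markers (right). Libraries labelled Sost-/- lie at 7.38 or above on the smooth muscle axis and those labelled Sost+/+ at 6.86 or below, so the 2 groups share no range on either axis.

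Neurons are the cells best known for GABA-A receptors. Of 9 tested neuron markers 0 passed, beside 2.55% of all genes tested. The summed level of all 12 neuron markers, tested or not, was 31.9 to 35.4 CPM in the libraries labelled Sost+/+ and 27.9 to 35.0 CPM in those labelled Sost-/-. The cholinergic marker Chat had 0 counts in 5 of the 6 libraries, and Snap25, a synaptic vesicle fusion gene, had 13 to 38 counts per library. Of the 9 tested neuron markers, 6 had a log2 fold change above 0, and the median was 0.28. The neuronal tubulin gene Tubb3 was the lowest of them, at -0.57 (SE 0.19, edgeR adjusted p = 0.141). Of 7 Schwann cell markers 0 passed, with a median log2 fold change of 0.53 and sums of 43.7 to 58.1 against 57.1 to 84.2 CPM. All 7 had a log2 fold change above 0, and 4 were higher with no overlap between groups, beside 14.3% of all genes tested.

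Of the other cell type lists, 1 of 6 pericyte markers rose, Cspg4 (0.92, SE 0.17, edgeR adjusted p = 0.0279), beside 2.18% of all genes tested as higher. The 6 pericyte markers had a median log2 fold change of 0.10, with 4 above 0 and the lowest at -0.46. Beside the same share, 1 of 6 chondrocyte markers rose, Acan (2.20, SE 0.38, edgeR adjusted p = 0.0252). The 6 chondrocyte markers had a median of 0.87, with 5 above 0. With a library left out the call of Cspg4 ended without Sost+/+ replicate 1 or 3 and without Sost-/- replicate 1 or 3 (adjusted p from 0.0534 to 0.125), and that of Acan without Sost+/+ replicate 1 or 3 and without Sost-/- replicate 3 (0.0630 to 0.121). None passed among 7 conduction system, 5 melanocyte, 7 fibroblast, 6 endothelial, 5 macrophage and 5 adipocyte markers, beside 2.55% of all genes tested in either direction. In that order, 4, 5, 6, 1, 3 and 5 of them had a log2 fold change above 0. Of these lists the adipocyte markers had the largest median log2 fold change, 1.40, with sums of 32.2 to 99.95 CPM against 95.9 to 292 CPM. The part of these cell types in the subunit differences was not tested.

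Many genes followed the cluster across the 6 libraries. These libraries differ by genotype label and in the mean level of smooth muscle markers. Named genes with a mean of at least 1 CPM numbered 12836. Of these genes, 578 had a Pearson's r of at least 0.9 between their log2 CPM and the mean of the 3 cluster genes. The highest was Stbd1, which encodes a glycogen-binding protein (r = 0.995), with 375, 618 and 210 counts in the libraries labelled Sost+/+ against 2154, 1815 and 2325 in those labelled Sost-/-. As in Gabra3 and Gabre, Sost+/+ replicate 2 was the highest of its group. It was followed by the nucleoredoxin gene Nxn (0.994), the neuronal trafficking gene Nsg1 (0.993), the small GTPase gene Rasd2 (0.992), the BMP antagonist gene Vwc2 (0.991) and the metalloproteinase gene Mmp9 (0.990). Vwc2, with 68, 126 and 37 counts against 503, 520 and 726, came nearest to Gabra3 in the size of its log2 fold change (2.86, SE 0.35), while Nsg1 differed by 0.36 (SE 0.09) and did not pass. With the mean of each group subtracted, r over the same 6 libraries was 0.889 to 0.953 for these genes, which were picked for their likeness.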

How the data were processed

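Reads of 6 aortic roots had been processed with DRAGEN, HTSeq and DESeq2 on build mm10, per the submitters' processing notes. What tool versions, gene annotation and strand setting were used is not given in the sources used here. The deposited counts are whole-number reads per gene symbol, made by the authors. The deposited normalized signal equals those counts divided by 1 factor per library. Libraries were directional, per the labels' protocols. No 2 libraries of a group were alike within sampling noise (chi-square per degree of freedom 33.9 to 64).

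The function filterByExpr of edgeR 4.0.16 (R 4.3.3), at a minimum count of 10 and a total of at least 15, kept 15096 genes. After TMM scaling they were tested by edgeR's quasi-likelihood functions glmQLFit and glmQLFTest. Benjamini-Hochberg adjustment ran over all 15096 genes, and 0.05 was the threshold. The SE is the absolute log2 fold change divided by the square root of F. Log2 CPM used a prior count of 2. Lengths and coordinates came from GENCODE M21 by symbol, with all 10 members matched, and promoters from RefSeq. Alternatives were other scalings and filters, DESeq2 1.42.0, limma-voom 3.58.1, limma on log2 of the deposited normalized values after adding 1, marker covariates and each library left out. The edgeR fit was tested on counts simulated for the 15096 genes of this comparison. It recovered 25.4% of genes given a log2 change of 0.5, 79.1% of those given 1 and 93.9% of those given 2, and 9 of its 141 calls were false.

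The members, the 9 functional and 12 cell type lists and the alternatives were chosen with earlier results of these data known. The rule for named genes takes Sost, the members, list members that passed or have the smallest p, tested neighbours within 1 Mb and the 6 genes most like the cluster. It gives 66 genes, narrowed for the text after their values were seen. Magea10, Mir452, Kcnmb1, Gad1, Gad2, Gabbr2, Slc12a2, Slc12a5, Chat and Snap25 were added after their values were seen. Some subunit genes are not reported here.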

Additional observations from a re-analysis of the deposited data

How the results depend on the processing

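Depth limits the 5 described members outside the cluster, with 26 to 51 counts in total, and Gabrq in the libraries labelled Sost+/+. The edgeR count of members called, 3 of 4 tested, was 1 with the cardiomyocyte covariate and 0 with the smooth muscle covariate, where 415 genes had an unadjusted p under 0.05. It was also 0 with limma on the deposited normalized values, where 2703 genes did. DESeq2 called Gabra3 and Gabre and gave Gabrq no adjusted p. The 329 genes called higher and 56 lower became 728 and 27 with total-count scaling, which moved the median log2 fold change of all genes to 0.13, and 771 and 434 with DESeq2. They became 1 and 0 with limma on the deposited values, 0 and 0 with the smooth muscle covariate and 41 and 3 with the cardiomyocyte covariate. Without a filter 92 were lower. With a library left out, 0 to 318 genes were higher, 0 to 37 lower and 0 to 3 members called. Without Sost+/+ replicate 1 none was called (2235 at an unadjusted p under 0.05), without Sost-/- replicate 3 there were 9 higher and 0 lower, without Sost+/+ replicate 3 there were 81 higher, and without Sost-/- replicate 2 there were 182 higher. The cause was not tested.

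When counts were not divided by length, the share of the cluster genes among subunit counts was 58.4% in the libraries labelled Sost+/+ and 92.6% in those labelled Sost-/-, from 68.3% and 95.3%. With a library left out it was 61.2% to 73.2% in the libraries labelled Sost+/+ and 94.8% to 96.0% in those labelled Sost-/-. The log2 fold changes of Gabra3, Gabre and Gabrq were above 0 in all 43 values under alternatives, of which 26 passed the threshold. Of 447 values of 30 genes under alternatives, 89 no longer passed the threshold and 12 newly passed it. A further 7 changed sign. With the smooth muscle covariate these were Nlgn2 (-0.0437), Chrna2 (0.18), Tubb3 (0.39), Prrg3 (-0.26), Nsdhl (-0.15) and Pnck (-0.23), and with the cardiomyocyte covariate Glrb (-0.0773). No paired analysis was possible because the labels give the libraries no replicate numbers shared between the groups. The replicate numbers used here follow the order of the library names within each group and do not pair libraries.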
